A study of Mus musculus with 24 samples.

Results

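The genes described here are 10 members of the NRF2 antioxidant and glutathione programme, taken by symbol from the 41710 genes measured in mouse embryonic fibroblasts (MEFs), and all 10 were found in the data of both primary and immortalized cells. They are the transcription factor gene Nfe2l2, its repressor Keap1, and Nqo1, Hmox1, Gclc, Gclm, Gsr, Txnrd1, Srxn1 and Prdx1, which encode enzymes of quinone, heme, glutathione, thioredoxin and peroxide metabolism. NRF2, the protein encoded by Nfe2l2, is held in the cytoplasm by KEAP1 and sent for degradation. When electrophiles or oxidants modify KEAP1, NRF2 accumulates, pairs with small MAF proteins and binds antioxidant response elements near its target genes, while BACH1 competes for the same elements. Control of NRF2 is therefore largely at the level of the protein, and the RNA of its targets is a more direct readout than the RNA of Nfe2l2 itself.

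The study asked how Myc and Mlx, transcription factors of neighbouring networks that can share E-box sites, shape fibroblast behaviour. MEFs were grown from pools of at least 6 embryos at about embryonic day 14 to 16. All cells carried floxed alleles of Myc, Mlx or both together with a tamoxifen-activated Cre (CreER) driven by the ROSA26 promoter. WT cells kept intact loci, and MycKO, MlxKO and double knockout (DKO) cells had the respective alleles excised with 500 nM 4-hydroxytamoxifen (4OHT). Immortalized cells carried in addition a lentiviral SV40 T-antigen with blasticidin resistance, selected at 1 and then 2 μg/ml. Since excision was by 4OHT and the vehicle was ethanol, exposure to 4OHT and genotype cannot be told apart. Floxed Myc, floxed Mlx and both were carried by separate MEF lines. The study reports that its WT lines behaved similarly and used a single line as control in most cases. Where WT and knockout libraries came from different lines, line and genotype cannot be told apart either. A change named here after the loss of Myc or Mlx carries these differences too. Primary MycKO and DKO cells were growth-arrested when RNA was taken, and immortalized MycKO cells had become largely tetraploid, per the study's account, so the groups differed in proliferation and ploidy as well as genotype. Each of the 4 genotypes had 3 libraries in each table, 24 in all. The study states that embryos were pooled within each group before freezing. It calls the libraries of a group biological replicates without saying whether each came from its own culture. The p-values measure the spread between these libraries and do not cover differences between embryo pools.

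Values are CPM, reads of a gene relative to the library total after scaling. Libraries held between 15986856 and 20966163 reads on genes, which placed the floor of 3 reads between 0.145 and 0.196 CPM. This floor covers counting error only, and all 10 genes lay far above it in every library. Changes are differences of log2(CPM + 1) from limma, and a gene was called where its 2-sided p, adjusted by Benjamini-Hochberg over the 13101 primary or 12880 immortalized genes tested, was under 0.05. With 3 values in each of a pair of groups, the smallest 2-sided p that an exact permutation test allows is 0.10, so any overlap between the libraries of groups is also stated. The primary and immortalized tables were normalized separately and are set side by side without a test.

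The targeted genes were lower in the labelled knockouts, but not past the test for Mlx in immortalized DKO cells. Myc stood at 93.9 ± 5.46 CPM in primary WT, 87.5 ± 1.99 in primary MlxKO, 26.5 ± 0.563 in primary MycKO and 21.5 ± 1.47 in primary DKO libraries (SD, n = 3). Mlx stood at 23.7 ± 2.84, 13.5 ± 0.480, 19.6 ± 2.02 and 11.2 ± 1.25 CPM in the same order. The floxed stretch covers only part of each gene, so reads from the exons that remain still count. Immortalized MycKO and DKO libraries held 9.96 to 17.2 and 4.25 to 8.02 CPM of Myc, but the WT libraries held 39.9, 48.1 and 177 CPM. Immortalized Mlx stood at 23 ± 2.34 CPM in WT, 13.8 ± 2.76 in MlxKO, 25.1 ± 2.68 in MycKO and 16.8 ± 1.96 in DKO libraries (SD, n = 3). Against WT it changed by -0.71 in MlxKO (adjusted p = 0.00471, limma) and by -0.44 in DKO libraries (adjusted p = 0.0694, limma), which was not called although the libraries did not overlap. The WT library with 177 CPM (library 4) correlated with the other WT libraries at r of 0.943 and 0.950 over genes, against 0.992 between those, and the immortalized MycKO library 9 correlated at 0.983 and 0.985, against 0.996 for its other pair. Counts of genes called against WT in immortalized cells are given with and without both. Of 10 fibroblast markers, all were above 1 CPM in every group, with summed levels of 42753 to 58686 CPM in primary and 18011 to 34569 CPM in immortalized libraries. Summed macrophage markers (12 genes) lay at 336 to 660.4 CPM in primary WT, 364 to 453 in MlxKO, 58.5 to 87.5 in MycKO and 118 to 264 in DKO libraries. In immortalized libraries they lay at 5.8 to 12.4 CPM, and the defining macrophage gene Adgre1 was at 0 throughout. Erythroid markers summed to at most 0.199 CPM in any library, and endothelial, epithelial, skeletal muscle and neural markers to at most 285 CPM each. In bulk RNA, fewer cells of a type and less RNA per cell cannot be told apart.

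Matches to the antioxidant response element core, TGACNNNGC on either strand, are shown first because they are the element by which NRF2 is known to reach these genes. Within 250 bases before to 50 bases after the annotated start site, 4 of the 10 genes held a match (Gclm, Prdx1, Txnrd1 and Srxn1), as did 12.5% of 21757 promoters of protein-coding genes. From 1000 bases before the start, Gsr and Nfe2l2 joined them, 6 of 10 against 30.4% of promoters. Keap1, Nqo1, Hmox1 and Gclc held no match in either window. Sites farther away or off the exact core were not searched, so these genes cannot be said to lack the element. The E-box CACGTG, the sequence bound by Myc and Mlx with their partners, lay in the shorter window of Hmox1 alone, against 7.82% of promoters, and in the longer window also of Nfe2l2 and Nqo1, 3 of 10 against 16.9%. None of the 21757 promoters held a pair of exact copies of CACGTG 5 bases apart in either window. With 0 matches anywhere, this search cannot set the members apart from other genes, and inexact pairs were not searched. These are GRCm39 sequences, read along the gene's strand with the match in capitals and followed by the first base counted from the start site.
Gclm, element core at -54 (chr3:122039054-122039098): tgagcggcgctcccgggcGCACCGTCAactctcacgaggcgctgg
Prdx1, element core at -78 (chr4:116542653-116542681): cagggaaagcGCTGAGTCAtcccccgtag
Txnrd1, element core at -65 (chr10:82694938-82694966): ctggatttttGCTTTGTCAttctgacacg
Nfe2l2, element core at -262 (chr2:75535229-75535257): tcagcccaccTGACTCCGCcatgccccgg
Gsr, element core at -744 (chr8:34142504-34142548): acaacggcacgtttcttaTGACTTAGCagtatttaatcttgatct
Hmox1, E-box at -38 (chr8:75820185-75820226): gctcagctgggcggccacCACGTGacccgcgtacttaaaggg
In Gclm, Prdx1 and Txnrd1 the core reads in the reverse direction relative to the gene. A match is a string of letters and not a measured binding site, and no binding was measured here.

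Per kilobase of canonical transcript, Prdx1 was the most abundant of the genes in WT cells of both tables, at 169 ± 8.32 CPM per kb in primary and 190.2 ± 27.3 in immortalized cells (SD, n = 3). Txnrd1 (86.8 ± 2.74 and 95 ± 14.8), Hmox1 (75 ± 7.99 and 54.6 ± 25.1), Nfe2l2 (34.1 ± 2.01 and 38.7 ± 3.38) and Gsr (20.7 ± 1.89 and 32.3 ± 2.31) followed in that order in both. Nqo1 was the least abundant, at 4.19 ± 0.126 and 4.24 ± 0.251 CPM per kb. Between them, the primary order was Keap1, Gclc, Srxn1 and Gclm, and the immortalized order was Gclm, Keap1, Gclc and Srxn1. Among neighbours in these orders, WT libraries overlapped for Srxn1 and Gclm in primary cells, and for Hmox1 and Nfe2l2, Gclm and Keap1, and Keap1 and Gclc in immortalized cells.

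**Figure D1:**
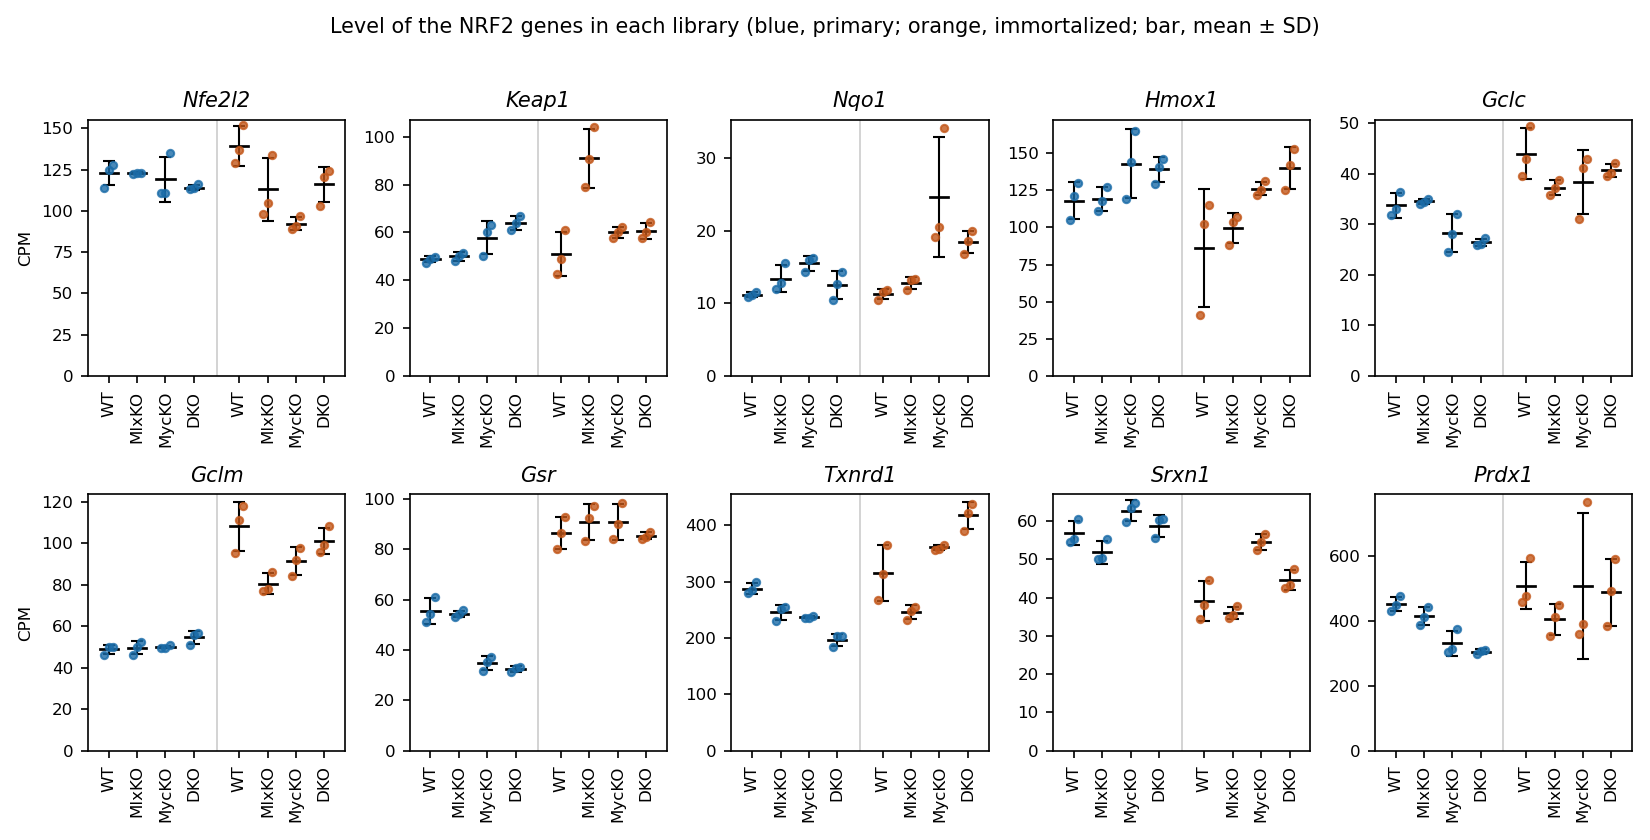
CPM of each of the 10 genes (panels, vertical axes from 0) in the 3 libraries (points) of each genotype, primary in blue and immortalized in orange, with mean and SD. Gsr is lower in primary MycKO and DKO cells than in WT, Keap1 stands highest in immortalized MlxKO cells, and 1 immortalized MycKO library reaches 765 CPM of Prdx1.

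Primary MycKO cells gave 6 calls against WT among the 10 genes: Nqo1 and Keap1 were higher, and Gsr, Prdx1, Txnrd1 and Gclc were lower. Of all genes tested, 42.3% were called in this comparison, 20.4% higher and 21.9% lower. The median log2 change of the 10 genes was -0.01, against 0.000 for all genes. DKO cells gave 5 calls, 1 higher (Keap1) and 4 lower (Gsr, Prdx1, Txnrd1 and Gclc), where 49.5% of all genes were called, 24% higher and 25.5% lower. The comparisons of MycKO and of DKO cells share the WT libraries. MlxKO cells gave 1 call, a fall of Txnrd1, where 8.88% of all genes were called, 3.75% higher and 5.14% lower.

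Immortalized cells gave a different list of calls. MycKO cells had 3, Nqo1 and Srxn1 higher and Nfe2l2 lower, against 48% of all genes, 24.4% higher and 23.5% lower. MlxKO cells also had 3, Keap1 higher and Gclm and Txnrd1 lower, against 38.9% of all genes, 19.1% higher and 19.9% lower. DKO cells had 2, Nqo1 and Txnrd1, both higher, against 18.9% of all genes, 10.4% higher and 8.51% lower. The difference between the share of the 10 genes called and that of all genes was not tested. Leaving out single libraries gave 4 to 7 calls in primary MycKO cells, with both Keap1 and Gclc lost without WT library 3, MycKO library 9 or MycKO library 11, and 3 to 6 in immortalized MycKO cells, the 6 without WT library 3. Without the immortalized WT library 4 and MycKO library 9, the counts were 4, 4 and 3 in MycKO, MlxKO and DKO cells, adding Txnrd1, Nfe2l2 and Hmox1, respectively. For fits that leave out libraries, the share of all genes called is not given here.

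**Figure D2:**
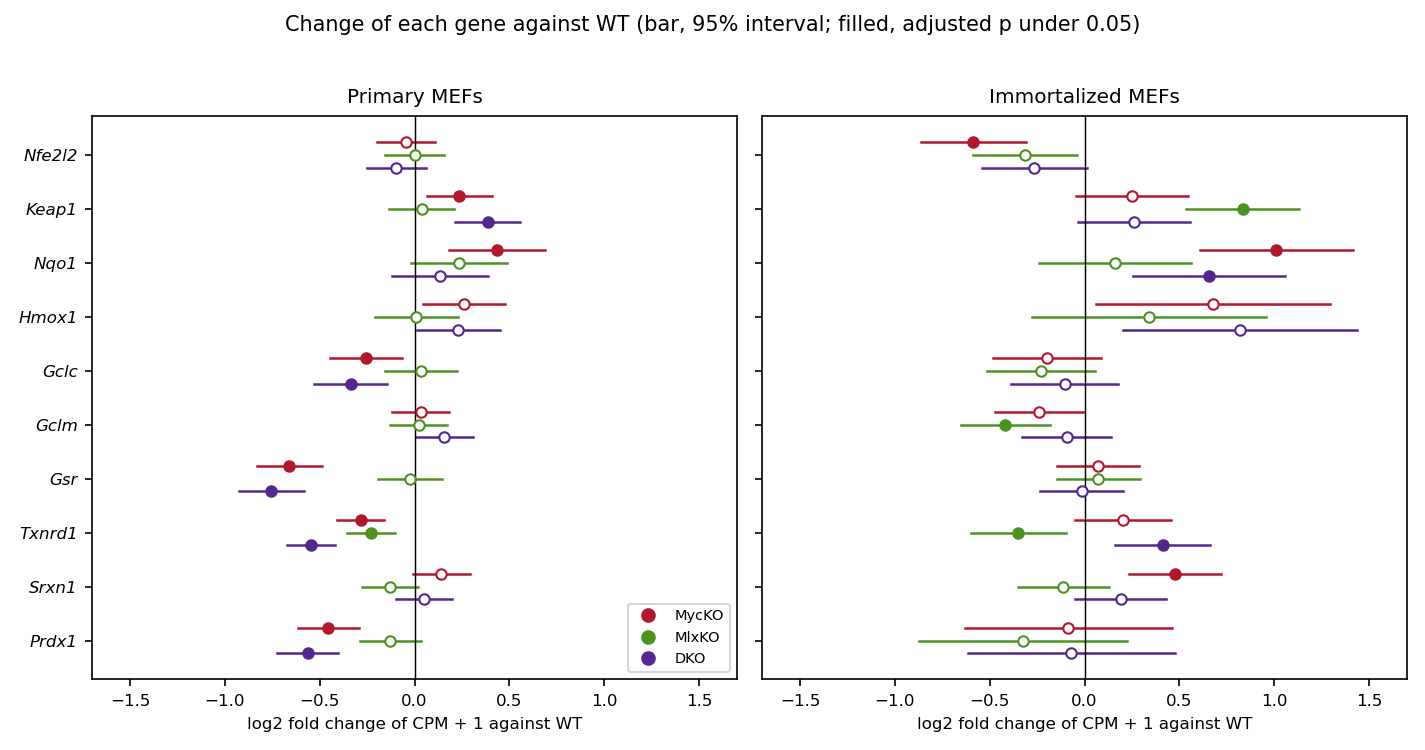
Log2 fold change of CPM + 1 against WT (horizontal axis) for each gene in MycKO, MlxKO and DKO cells, with 95% intervals, and filled points where the adjusted p was under 0.05. In primary cells the filled points of Gsr, Prdx1, Txnrd1 and Gclc lie left of 0, whereas in immortalized cells Nqo1 reaches 1.01 in MycKO and Keap1 0.83 in MlxKO cells.

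Nfe2l2 and Keap1, the regulator pair, were examined before the target genes. Nfe2l2 (ENSMUSG00000015839, chromosome 2, 75504739 to 75534985, minus strand) read 114, 125 and 128 CPM in primary WT libraries, 122, 123 and 123 in MlxKO, 111, 111 and 135 in MycKO, and 113, 114 and 116 in DKO. The groups lay on top of each other, apart from DKO libraries below those of MlxKO, and no comparison called the gene in the main fit. With division by library totals it was called lower in DKO than in WT (adjusted p = 0.0454, limma) and than in MlxKO (adjusted p = 0.0212, limma). The 95% interval of the change with Myc loss ran from -0.20 to 0.11 on the log2 scale. In immortalized cells it read 129, 137 and 152 CPM in WT, 98.2, 105 and 134 in MlxKO, 89, 90.7 and 96.8 in MycKO, and 103, 120.3 and 124 in DKO. All MycKO libraries lay below all WT libraries, a fall by 0.59 on the log2 scale (SE 0.127, adjusted p = 0.0026, limma). The MlxKO value of -0.31 (adjusted p = 0.0665) and the DKO value of -0.26 (adjusted p = 0.159) were not called. Without the pair of libraries that stand apart, the MycKO value was -0.63 and the MlxKO value was -0.37, which then passed (adjusted p = 0.025, limma). A stretch of 6.49% of Nfe2l2 transcript is shared with the antisense RNA E030042O20Rik, which had at most 0.714 CPM in any library.

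Keap1 (ENSMUSG00000003308, chromosome 9, 21141026 to 21150679, minus strand) encodes the adaptor that hands NRF2 to the CUL3 ubiquitin ligase. Its primary levels were 47.3, 48.8 and 49.8 CPM in WT, 48.1, 50.2 and 51.6 in MlxKO, 49.97, 60.04 and 63.3 in MycKO, and 60.9, 64 and 66.8 in DKO libraries. WT and MlxKO libraries overlapped, and all DKO libraries stood above them. The change against WT was 0.39 in DKO (SE 0.0808, adjusted p = 0.000834, limma) and 0.24 in MycKO (adjusted p = 0.0265), where the lowest MycKO library was just above the highest WT library. The MycKO call was lost in 6 of 21 alternatives, among them the omission of MycKO library 9 or 11 or of WT library 2 or 3. In immortalized cells the pattern was another: 42.6, 49.1 and 61 CPM in WT, 78.9, 90.7 and 104 in MlxKO, 57.8, 60.2 and 62.2 in MycKO, and 57.6, 60.2 and 64.2 in DKO libraries. MlxKO libraries stood above those of every other group, with a change of 0.83 against WT (SE 0.136, adjusted p = 0.000975, limma) and with DKO 0.57 below MlxKO (log2 -0.57, adjusted p = 0.00827). MycKO and DKO libraries overlapped with WT. Antisense RNAs share 29.1% of Keap1 transcript in 50-base stretches. Of these, Gm16754 had at most 1.38 CPM in any library, and Gm68155 was not found by name among the measured genes. The libraries were directional, but whether the counting used strand is not given in the sources used here.

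Nqo1 (ENSMUSG00000003849, chromosome 8, 108113835 to 108129934, minus strand), a quinone reductase that is widely used as an NRF2 readout, was higher in MycKO cells of both tables. Primary libraries read 10.9, 11.1 and 11.6 CPM in WT, 12, 12.8 and 15.5 in MlxKO, 14.3, 16 and 16.3 in MycKO, and 10.4, 12.7 and 14.3 in DKO. MycKO and MlxKO libraries all stood above WT, while DKO libraries spanned the WT range. The change was 0.44 in MycKO (SE 0.119, adjusted p = 0.00749, limma), 0.24 in MlxKO (adjusted p = 0.241) and 0.13 in DKO (adjusted p = 0.378). In immortalized cells WT libraries read 10.5, 11.6 and 11.8 CPM and MlxKO libraries 11.8, 13.2 and 13.4, whereas MycKO libraries read 19.2, 20.5 and 34.1 and DKO libraries 16.8, 18.6 and 19.9. All libraries without Myc were above all with it. The change was 1.01 in MycKO (SE 0.185, adjusted p = 0.000922, limma) and 0.66 in DKO (adjusted p = 0.0289). Without the libraries that stand apart, the MycKO value was 0.78 (adjusted p = 0.00028) and the DKO value 0.68 (adjusted p = 0.0011). The DKO call was lost in 6 of 22 alternatives, 5 of which left out a WT library (2 or 3) or a DKO library (13, 14 or 15). The 5 genes tested in both tables whose levels followed Nqo1 most closely over the 12 libraries of each were Nkain4 (mean Pearson r 0.857), Rab7 (0.855), Hsbp1 (0.854), Lurap1l (0.83) and Rassf6 (0.815). None of them is a listed NRF2 gene, and the libraries share their genotype groups.

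Hmox1 (ENSMUSG00000005413, chromosome 8, 75820241 to 75827217, plus strand) encodes heme oxygenase, which opens the heme ring, and was not called in any comparison. Its primary levels were 105, 121 and 129.6 CPM in WT, 111, 118 and 127 in MlxKO, 119, 144 and 165 in MycKO, and 129, 141 and 146 in DKO libraries. The MycKO change of 0.26 (adjusted p = 0.0512, limma) lay next to the threshold and passed it in 6 of 21 alternatives, edgeR and DESeq2 among them. Hmox1 is also abundant in macrophages, whose summed markers were lowest in primary MycKO libraries. Their part in the level of Hmox1 was not tested. Immortalized WT libraries read 41, 102 and 115 CPM, and the lowest of these was library 4. MlxKO libraries read 88.3, 104 and 107, MycKO libraries 122, 125 and 131, and DKO libraries 125, 142 and 153, so that both groups without Myc stood above WT. The changes of 0.68 in MycKO (adjusted p = 0.0658) and 0.82 in DKO (adjusted p = 0.0617) fell to 0.24 (adjusted p = 0.107) and 0.36 (adjusted p = 0.0253), respectively, without the libraries that stand apart.

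Glutathione is made by glutamate-cysteine ligase, with Gclc its catalytic and Gclm its modifier subunit, and is returned to its reduced form by glutathione reductase, encoded by Gsr. Of the 3, Gsr moved most in primary MycKO and DKO cells. Gsr (ENSMUSG00000031584, chromosome 8, 34142551 to 34188192, plus strand) read 51, 54.4 and 60.9 CPM in primary WT and 52.9, 54.2 and 55.7 in MlxKO libraries, but 31.7, 35.1 and 37.3 in MycKO and 31.1, 32.9 and 33.1 in DKO. Libraries with and without Myc were separate. The change was -0.66 in MycKO (SE 0.0801, adjusted p = 5.88e-06, limma) and -0.76 in DKO (adjusted p = 1.03e-06), and these calls held in all 21 alternatives. DKO and MycKO cells differed by -0.10 (95% interval -0.26 to 0.07). In immortalized cells the groups overlapped, at 80.2 to 92.6 CPM in WT, 83.2 to 97.3 in MlxKO, 83.9 to 98.4 in MycKO and 84.2 to 86.9 in DKO libraries. The interval of the immortalized MycKO change ran from -0.15 to 0.29. The summed macrophage markers fell alongside Gsr in primary MycKO and DKO cells, and their part in the change was not tested.

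Gclc (ENSMUSG00000032350, chromosome 9, 77661797 to 77701770, plus strand) read 31.8, 33 and 36.4 CPM in primary WT, 34, 34.4 and 35 in MlxKO, 24.5, 28.1 and 32 in MycKO, and 25.9, 26.1 and 27.2 in DKO libraries. DKO libraries were all below WT, while the MycKO range touched that of WT. The changes were -0.34 in DKO (SE 0.0902, adjusted p = 0.00519, limma) and -0.26 in MycKO (adjusted p = 0.031), and the second was lost in 5 of 21 alternatives, 4 of them the omission of WT library 1 or 3 or of MycKO library 9 or 11. In immortalized cells Gclc was not called, with libraries of 39.6 to 49.4 CPM in WT, 35.8 to 38.7 in MlxKO, 31.1 to 42.8 in MycKO and 39.5 to 42 in DKO. Gclm (ENSMUSG00000028124, chromosome 3, 122039126 to 122065061, plus strand) did not fall in primary cells. Its primary libraries overlapped between WT (46.3 to 50.2 CPM), MlxKO (46.3 to 52.5) and MycKO (49.6 to 50.8), and DKO libraries (50.9, 55.9 and 56.9 CPM) lay above WT with a change of 0.16 that was not called (adjusted p = 0.0802, limma). Immortalized WT libraries read 95, 111 and 118 CPM, MlxKO 76.8, 78.1 and 86.3, MycKO 84.3, 91.8 and 97.7, and DKO 95.8, 99 and 108. MlxKO libraries were all below WT, a fall by 0.42 on the log2 scale (SE 0.108, adjusted p = 0.0104, limma), and this call was lost only with library-total scaling. With all libraries, limma did not call Gclc and Gclm in the same comparison. Without DKO library 14, however, Gclm passed in primary DKO cells (adjusted p = 0.0488, limma), where Gclc was called as well. Immortalized MlxKO libraries of Gclc also all lay below WT, a change of -0.23 that was not called (adjusted p = 0.181, limma).

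Txnrd1, Srxn1 and Prdx1 serve thiol peroxide removal: PRDX1 reduces peroxides, thioredoxin reductase encoded by Txnrd1 supplies its electrons through thioredoxin, and sulfiredoxin encoded by Srxn1 repairs over-oxidized peroxiredoxin. Txnrd1 (ENSMUSG00000020250, chromosome 10, 82669785 to 82733546, plus strand) was the gene called most often. Its primary libraries read 281, 286 and 299 CPM in WT, 230.5, 251 and 255 in MlxKO, 235, 236 and 239 in MycKO, and 185, 203 and 204 in DKO. Each single knockout lay below WT and DKO lay below both. The changes were -0.23 in MlxKO (SE 0.0595, adjusted p = 0.0216, limma), -0.28 in MycKO (adjusted p = 0.00102) and -0.55 in DKO (adjusted p = 1.4e-06), and DKO was 0.26 below MycKO (log2 -0.26, adjusted p = 0.00435). The MlxKO call was lost without WT library 1, WT library 2 or MlxKO library 7. Txnrd1 was the sole gene of the 10 called between primary DKO and MycKO cells, where 21.5% of all genes were called.

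Immortalized Txnrd1 moved differently. WT libraries read 268, 313 and 366 CPM, MlxKO 233, 249 and 256, MycKO 357, 358 and 366, and DKO 391, 423 and 439. MlxKO libraries were all below and DKO libraries all above WT, with changes of -0.35 (SE 0.116, adjusted p = 0.0313, limma) and 0.41 (adjusted p = 0.0283). The highest WT value is that of library 4. Without the libraries that stand apart, the values were -0.24 in MlxKO (adjusted p = 0.0449), 0.52 in DKO (adjusted p = 0.000965) and 0.32 in MycKO, which then passed (adjusted p = 0.0165, limma). The MlxKO call was lost in 7 of 22 alternatives, among them the omission of WT library 2 or 4 or of any MlxKO library, and the DKO call in 6, among them the omission of WT library 2 or 3 or of any DKO library.

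Srxn1 (ENSMUSG00000032802, chromosome 2, 151947436 to 151957687, plus strand) read 54.5, 55.3 and 60.4 CPM in primary WT, 49.96, 50.2 and 55.2 in MlxKO, 59.7, 63.5 and 64.8 in MycKO, and 55.5, 60.2 and 60.6 in DKO libraries. WT overlapped with each knockout, and no change against WT was called. In immortalized cells MycKO libraries (52.4, 54.5 and 56.6 CPM) stood above those of WT (34.4, 38.1 and 44.7), MlxKO (34.7, 35.4 and 37.7) and DKO (42.6, 43.4 and 47.4). The MycKO change was 0.48 (SE 0.111, adjusted p = 0.00415, limma), and the DKO change of 0.19 was not called (adjusted p = 0.244).

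Prdx1 (ENSMUSG00000028691, chromosome 4, 116532123 to 116558398, plus strand) read 431, 448 and 475 CPM in primary WT, 386, 413 and 442 in MlxKO, 305, 312 and 374 in MycKO, and 297, 306 and 311 in DKO libraries. MycKO and DKO libraries were all below WT. The change was -0.45 in MycKO (SE 0.0755, adjusted p = 0.000135, limma), -0.56 in DKO (adjusted p = 1.26e-05) and -0.13 in MlxKO (adjusted p = 0.326). In immortalized cells it was called in no comparison, at 458, 475 and 592 CPM in WT, 354, 413 and 448 in MlxKO, 360.3, 391 and 765 in MycKO, and 384, 492 and 589 in DKO libraries. The 765 CPM are those of MycKO library 9. Without it and WT library 4, the MycKO change was -0.31 (adjusted p = 0.118, limma) in place of -0.09. Other genes share 17.8% of Prdx1 transcript in 50-base stretches. The largest part is shared with the noncoding RNA Gm64945 (12.3%), followed by the processed pseudogenes Gm21399 (6.4%) and Gm7204 (5.41%). None of these was found by name among the measured genes, so the level of Prdx1 is uncertain to that extent.

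Whether Mlx altered the change that follows Myc loss was tested as an interaction, the change of DKO against MlxKO minus that of MycKO against WT. Primary DKO against MlxKO cells called 6 of the 10 genes, 2 higher (Keap1, 0.35, and Srxn1, 0.18) and 4 lower (Gsr, -0.73, Prdx1, -0.44, Gclc, -0.37, and Txnrd1, -0.31), where 49.1% of all genes were called, 23.3% higher and 25.9% lower. The Srxn1 call (adjusted p = 0.045, limma) was lost in 8 of 21 alternatives, 7 of them omissions of a single library (WT 1, MlxKO 5 or 7, MycKO 9 or 11, DKO 13 or 15). The interaction called Nqo1 alone, with 13.5% of all genes called. Nqo1 changed by 0.44 upon Myc loss with Mlx present and by -0.10 with Mlx absent, a difference of -0.54 (SE 0.169, adjusted p = 0.0438, limma). This call was lost in 9 of 20 alternatives, 8 of them omissions of a single library. For Gsr the difference was -0.07 (95% interval -0.31 to 0.17), for Prdx1 0.02 (-0.21 to 0.24) and for Txnrd1 -0.03 (-0.21 to 0.15).

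In immortalized cells the interaction called 4 of the 10 genes, where 47.4% of all genes were called. Nfe2l2 changed by -0.59 with Myc loss when Mlx was present and by 0.05 when it was absent, a difference of 0.64 (SE 0.179, adjusted p = 0.0119, limma). With library-total scaling the Nfe2l2 difference was 0.46 and the call was lost (adjusted p = 0.0555, limma). Keap1 went from 0.25 to -0.57, a difference of -0.82 (SE 0.192, adjusted p = 0.00442). Gclm went from -0.24 to 0.32, a difference of 0.56 (SE 0.153, adjusted p = 0.00987), and Txnrd1 from 0.20 to 0.76, a difference of 0.56 (SE 0.164, adjusted p = 0.0145). All 4 were called without the libraries that stand apart, at 0.68, -0.83, 0.50 and 0.44 in the same order, and Prdx1 (0.57, adjusted p = 0.0313, limma) was then called as well. DKO against MlxKO cells called 3 genes, Keap1 lower and Gclm and Txnrd1 higher, where 30.1% of all genes were called, 16.3% higher and 13.9% lower. The Gclm call (0.32, adjusted p = 0.0393) was lost in 9 of 22 alternatives, 8 of them omissions of a single library (WT 2, MlxKO 5, 6 or 7, MycKO 11, DKO 13, 14 or 15), and 6 genes were called without WT library 4. DKO against MycKO cells called 0 of the 10 genes with limma, where 29.4% of all genes (3788) were called, and 2 of the 10 had an unadjusted p under 0.05. With edgeR 0 of the 10 genes and 3805 of all genes were called. DESeq2 called 1 of the 10, Srxn1, and 4181 of all genes.

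**Figure D3:**
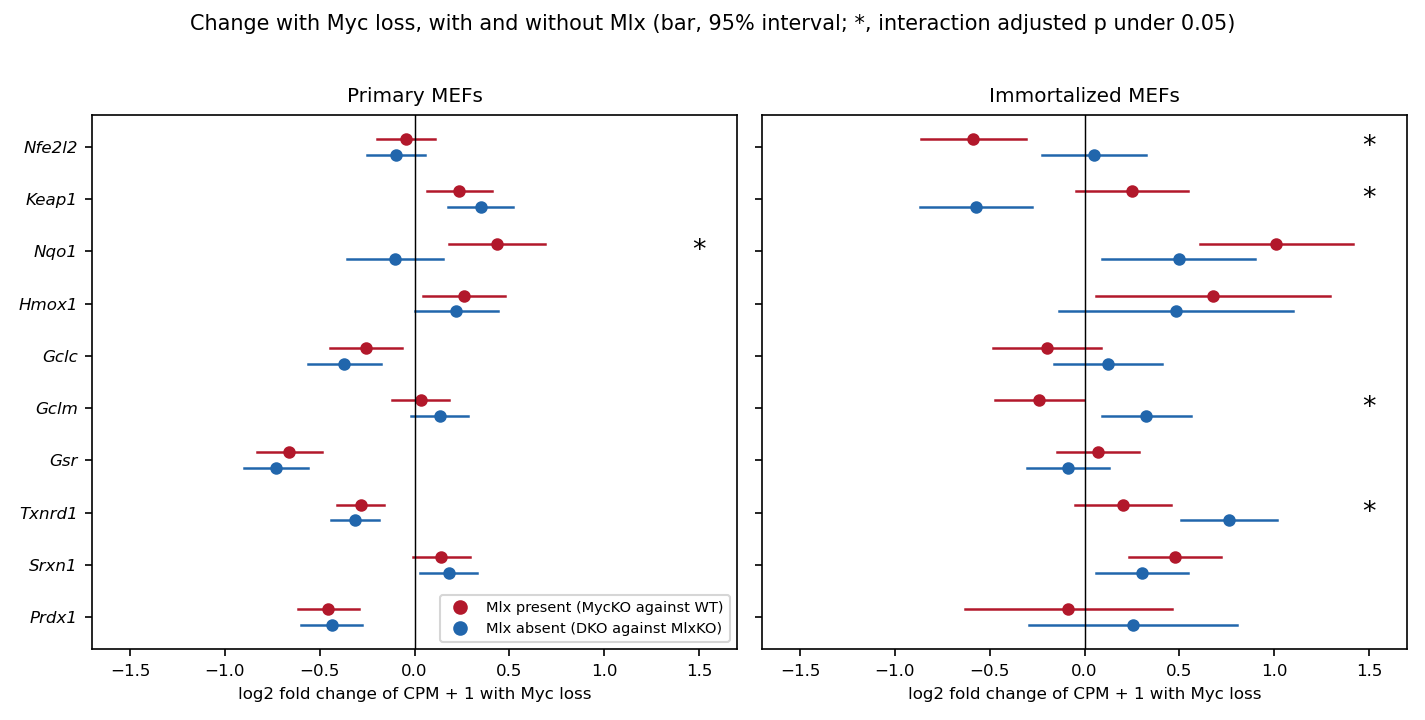
Log2 fold change with Myc loss (horizontal axis) where Mlx is present (MycKO against WT, red) and absent (DKO against MlxKO, blue), with 95% intervals and an asterisk where the interaction was called. The red and blue points of primary cells lie close together for every gene but Nqo1, and in immortalized cells Nfe2l2, Keap1, Gclm and Txnrd1 carry the asterisk.

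Over the 12 primary libraries, Gclc, Gsr and Prdx1 moved together (Pearson r of log2(CPM + 1) 0.81 to 0.92 between pairs), and Keap1 moved against them (-0.95 with Gclc, -0.92 with Prdx1 and -0.82 with Gsr). These values describe libraries that share their genotype groups and are given without a test. In immortalized libraries the sole pair beyond 0.8 in either direction was Keap1 with Gclm, at -0.83.

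Around the 10 genes, 7 lists of 117 different genes of the same metabolism were counted, of which 116 were measured. For each count that follows, the shares of all genes called higher and lower than WT were 20.4% and 21.9% in primary MycKO, 3.75% and 5.14% in primary MlxKO and 24% and 25.5% in primary DKO cells. In immortalized cells they were 24.4% and 23.5% for MycKO, 19.1% and 19.9% for MlxKO, and 10.4% and 8.51% for DKO. No list was tested against these shares. They belong to the fits with all libraries, and no such shares are given for counts without the libraries that stand apart. A change in those counts therefore cannot be told from a change in calls over all genes. Among 13 tested regulators of NRF2, 6 were higher and 1 lower in primary MycKO and 8 higher and 0 lower in primary DKO cells, with list medians of 0.18 and 0.22 against 0.000 and -0.002 for all genes. Bach1, the repressor that competes with NRF2, rose from 69.5 ± 4.74 CPM in WT to 102 ± 3.59 in primary DKO cells (SD, n = 3; log2 0.55, adjusted p = 1.17e-05, limma). Maff, a small MAF partner, rose from 30.8 ± 2.51 to 52.9 ± 7.27 CPM in primary MycKO (log2 0.75, adjusted p = 1.01e-05) and from 33.5 ± 3.82 to 64.5 ± 4.19 CPM in immortalized DKO cells (log2 0.93, adjusted p = 0.000924). In primary MlxKO cells 0 were higher and 2 lower, and Bach2, a relative of Bach1, fell by 0.74 on the log2 scale (adjusted p = 0.00608). In immortalized cells 2 were higher and 2 lower in MycKO, 1 and 2 in MlxKO, and 2 and 1 in DKO. These were 5 and 4, 2 and 3, and 2 and 1 without the libraries that stand apart. Cul3, the ligase scaffold that works with KEAP1, fell from 215 ± 32.5 to 146 ± 11.9 CPM in MycKO (log2 -0.54, adjusted p = 0.00784) and to 125 ± 17.6 CPM in MlxKO cells (log2 -0.78, adjusted p = 0.00172).

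Among genes of glutathione synthesis, reduction and use, 29 were tested in primary and 26 in immortalized cells. Primary MycKO cells had 8 higher and 5 lower, MlxKO 2 and 4, and DKO 7 and 5, with medians of 0.09, 0.05 and -0.03. Immortalized cells had 8 higher and 5 lower, 3 and 2, and 2 and 1 in the same order, with medians of 0.17, 0.08 and 0.16. Without the libraries that stand apart these were 8 and 10, 4 and 9, and 3 and 2. Slc7a11, the cystine importer that feeds glutathione synthesis, fell the most of its list in 5 of the 6 comparisons. Its level went from 24.9 ± 1.5 CPM in primary WT to 9.46 ± 2.22 in MycKO (log2 -1.33, adjusted p = 1.89e-06, limma) and 9.52 ± 0.935 in DKO cells (log2 -1.30, adjusted p = 1.69e-06). In immortalized cells it went from 36 ± 11.3 to 4.94 ± 0.714 CPM in MycKO (log2 -2.61, adjusted p = 1.19e-06), 18.3 ± 2.98 in MlxKO (log2 -0.91) and 13.9 ± 0.726 in DKO cells (log2 -1.27). Gstm2, a glutathione S-transferase, rose from 20.1 ± 1.7 CPM in primary WT to 44.1 ± 4.63 in MycKO (log2 1.09, adjusted p = 1.77e-07) and 48.9 ± 1.58 in DKO cells (log2 1.24). Mgst3, a microsomal relative, rose in immortalized MycKO cells by 1.85, but by 0.62 without the libraries that stand apart (adjusted p = 0.0286).

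All 18 thioredoxin, peroxiredoxin and sulfiredoxin partners were tested. Primary MycKO cells had 3 higher and 8 lower, MlxKO 2 and 4, and DKO 2 and 7, with medians of -0.14, -0.07 and -0.16, while immortalized cells had 4 and 3, 1 and 3, and 2 and 3, with medians of 0.17, 0.11 and -0.11. Without the libraries that stand apart the immortalized counts were 5 and 4, 6 and 5, and 3 and 5. Txnip, a thioredoxin inhibitor, fell from 122 ± 6.74 CPM in primary WT to 6.1 ± 0.958 in MlxKO (log2 -4.13, adjusted p = 2.58e-14, limma) and 24.5 ± 1.42 in DKO cells (log2 -2.28). From an immortalized WT level of 56.3 ± 20.6 CPM it fell to 1.16 ± 0.423 in immortalized DKO (log2 -4.68, adjusted p = 9.02e-07) and to 3.83 ± 1.11 in immortalized MlxKO cells (log2 -3.52). Sesn3, a stress-induced sestrin, rose by 1.15 in primary DKO (adjusted p = 1.05e-07), 0.53 in primary MycKO (adjusted p = 0.000387) and 0.50 in primary MlxKO cells, whereas it fell from 122 ± 41.3 to 25.4 ± 5.28 CPM in immortalized MycKO cells (log2 -2.17, adjusted p = 1.88e-05).

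Of 12 tested genes of NADPH supply, the reductant that both GSR and TXNRD1 consume, 0 were higher and 7 lower in primary MycKO and 1 higher and 9 lower in primary DKO cells, with medians of -0.27 and -0.38, where 21.9% and 25.5% of all genes were lower. Primary MlxKO cells had 1 higher and 0 lower. Idh2, mitochondrial isocitrate dehydrogenase, fell from 89.4 ± 2.48 to 52.3 ± 6.96 CPM in primary MycKO cells (log2 -0.77, adjusted p = 2.12e-06, limma). Aldh1l2, a mitochondrial folate enzyme, fell from 148 ± 12.2 to 75.9 ± 5.43 CPM in primary DKO cells (log2 -0.96, adjusted p = 4.56e-08). In immortalized cells 3 were higher and 4 lower in MycKO, 1 and 4 in MlxKO, and 0 and 3 in DKO, and Aldh1l2 fell the most in each (log2 -1.97, -1.21 and -1.07). The counts were 3 and 5, 2 and 4, and 1 and 4 without the libraries that stand apart. Taldo1, transaldolase of the pentose phosphate pathway, rose from 77.8 ± 2.47 to 139 ± 19.2 CPM in immortalized MycKO cells (log2 0.82, adjusted p = 0.000156).

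Of the superoxide dismutases, catalase and NADPH oxidases, 8 were tested in primary and 7 in immortalized cells. Primary MycKO had 1 higher and 3 lower, MlxKO 2 and 0, and DKO 1 and 2. Cybb, the phagocyte oxidase subunit, fell from 11.1 ± 3.33 to 0.971 ± 0.08 CPM in primary MycKO (log2 -2.57, adjusted p = 5.31e-08, limma) and 2.94 ± 1.01 in DKO cells (log2 -1.60), in the same libraries in which summed macrophage markers were low. Sod3, extracellular superoxide dismutase, rose from 151 ± 7.47 to 276 ± 9.83 CPM in primary DKO cells (log2 0.87). Immortalized cells had 2 higher and 2 lower in MycKO, 3 and 3 in MlxKO, and 0 of either in DKO with limma. Leaving out the libraries that stand apart gave 1 and 2, 3 and 3, and 2 and 0. Sod3 there fell in MycKO (log2 -2.23) and rose in MlxKO (log2 1.60), from a WT level of 55.6 ± 52.5 CPM whose spread was as large as its mean, and without the libraries that stand apart the values were -1.48 and 2.32.

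Of 11 heme and iron genes, 1 was higher and 5 lower in primary MycKO, 0 and 2 in MlxKO, and 2 and 4 in DKO cells. Tfrc, the transferrin receptor that brings iron into the cell, fell the most in all 3, from 113 ± 4.26 CPM in WT to 33.2 ± 3.87 in MycKO (log2 -1.75, adjusted p = 5.91e-10, limma), 80.3 ± 5.12 in MlxKO (log2 -0.49) and 29.4 ± 1.91 in DKO (log2 -1.91). Immortalized cells had 3 higher and 1 lower in MycKO, 2 and 1 in MlxKO, and 1 and 2 in DKO, or 3 and 2, 4 and 2, and 1 and 2 without the libraries that stand apart. Ftl1, the ferritin light chain, rose from 1088 ± 311 to 1773 ± 141 CPM in immortalized DKO cells (log2 0.74, adjusted p = 0.0382), and by 0.49 without the libraries that stand apart. Of 15 other detoxification targets, 5 were higher and 4 lower in primary MycKO, 1 and 2 in MlxKO, and 5 and 6 in DKO cells, with medians of -0.02, 0.04 and 0.02. Immortalized cells had 6 higher and 1 lower, 5 and 1, and 5 and 1, with medians of 0.37, 0.27 and 0.21, and 7 and 2, 6 and 1, and 6 and 1 without the libraries that stand apart. Ptgr1, prostaglandin reductase, rose from 15.2 ± 1.5 to 39.8 ± 4.47 CPM in immortalized MycKO cells (log2 1.33, adjusted p = 5.79e-06), and Abcc4, an efflux pump, fell in MycKO cells of both tables (log2 -0.70 and -1.54).

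**Figure D4:**
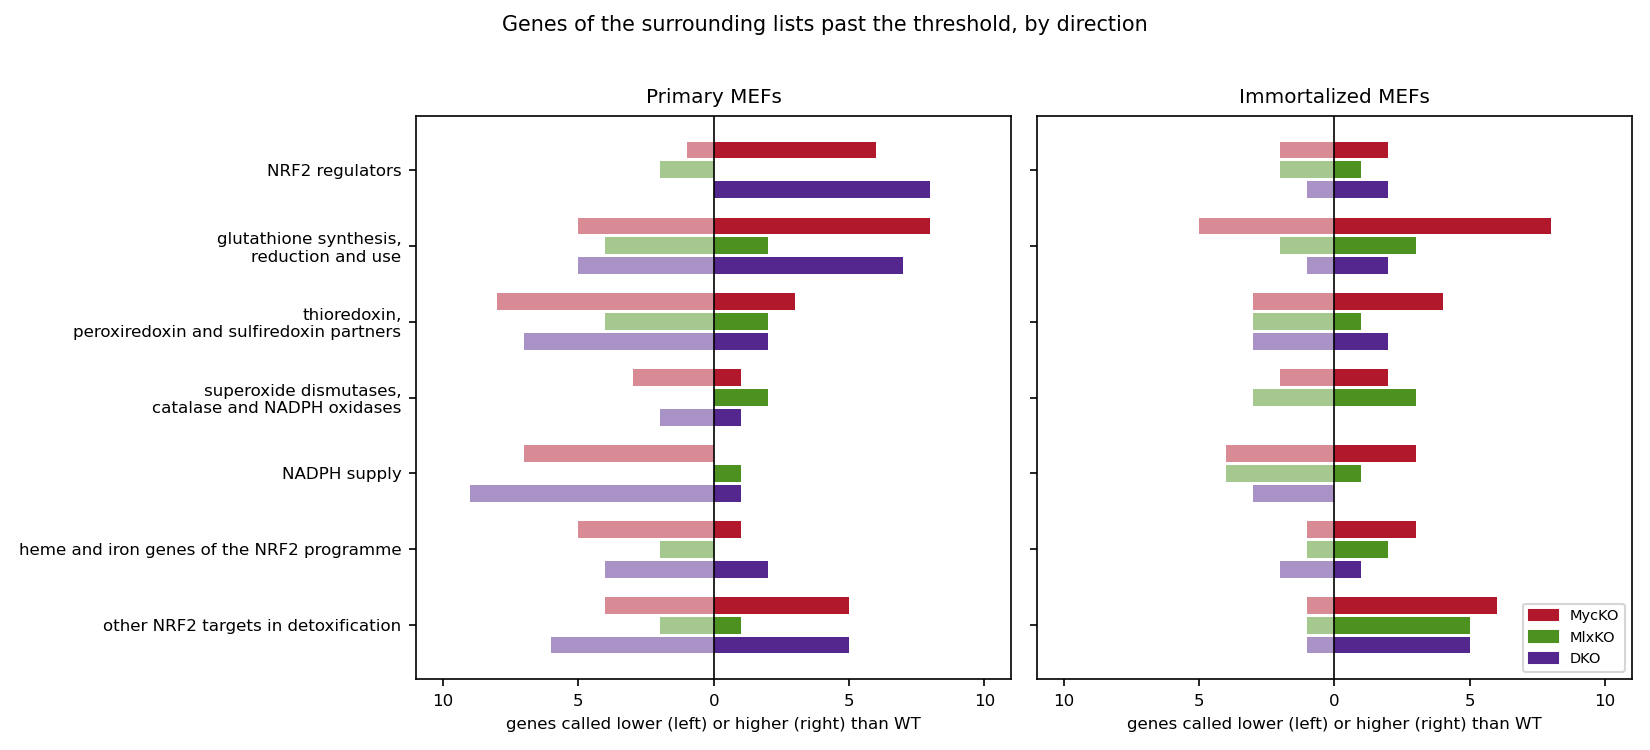
Number of genes of each surrounding list called lower (left, pale) or higher (right, dark) than WT in MycKO, MlxKO and DKO cells (horizontal axis, number of genes). NADPH supply reaches 9 genes lower in primary DKO cells and regulators of NRF2 reach 8 higher, where 25.5% of all genes were lower and 24% higher.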

How the data were processed

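The members and the lists around them were chosen with earlier results of these data known. The authors made directional poly-A libraries for an Illumina NovaSeq and used CLC Genomics Workbench to map reads to GRCm39 and count them by gene. They deposited the signal as CPM for 41710 genes in a table of 12 primary and a table of 12 immortalized libraries. The deposited CPM summed to between 915691 and 1077213 per library, which shows that libraries had been scaled against each other before deposit, by a method that is not given in the sources used here. All nonzero values were whole multiples of the CPM of a single read within a tolerance of 0.1, and the recovered reads were used for depth and for edgeR and DESeq2.

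From the deposited signal, log2(CPM + 1) went into limma 3.58.1 (R 4.3.3), whose variance prior followed the mean. Each table had a fit of its own with all 4 groups, over the genes that reached 1 CPM in 3 or more libraries. The study's own calls intersected CLC, DESeq and edgeR. Since the values are normalized, limma was the main test and edgeR 4.0.16 (5565 genes called in primary MycKO against 5541 with limma) and DESeq2 1.42.0 were alternatives on the recovered reads. Data were simulated from the mean levels and depths of the primary libraries (13101 genes), with a few genes changed in MycKO. There limma recovered 91% of genes changed by 0.5 and 100% of those changed by 1 on the log2 scale. It called 9 of 12901 unchanged genes. With the immortalized libraries (12880 genes) these were 86%, 100% and 9 of 12680. The simulation gave every gene the same fixed spread beyond counting error. Real spread could be larger, with an SD of 46% of the mean for Hmox1 in immortalized WT libraries. These shares therefore do not give the recovery in the real data.

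Genes named outside the 10 are those with the largest rise or fall of a list past the threshold, with libraries that did not overlap, and the 5 most like Nqo1. Copies and antisense partners were named after their values were seen. Gene places, start sites and transcript lengths are those of GENCODE vM39 on GRCm39. Protein sequences were not used here.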

Additional observations from a re-analysis of the deposited data

Results flagged for a closer look

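In 5 cases the change of a gene with Myc loss differed by genotype at Mlx, by a test of the interaction itself with limma. In primary cells it was Nqo1, with a difference of -0.54 (DKO against MlxKO minus MycKO against WT, log2). Its MycKO and MlxKO libraries all stood above WT, and its DKO libraries spanned the WT range. In immortalized cells they were Nfe2l2 (0.64), Keap1 (-0.82), Gclm (0.56) and Txnrd1 (0.56). Immortalized Keap1 was highest in all 3 MlxKO libraries, the mean of Gclm was lowest there, with 1 library inside the MycKO range, and Txnrd1 was lowest there and highest in DKO cells. The share of all genes with such an interaction was 13.5% in primary and 47.4% in immortalized cells.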

How the results depend on the processing

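No paired analysis was possible because nothing links the library number in a column name to a replicate number in the labels. Of 35 calls of the 10 genes over 12 comparisons, 24 held in every alternative and 11 were lost in at least 1, none with a change of sign, while 20 of 85 values that were not called passed in at least 1; beyond the libraries named with the results, the cause was not tested. Requiring an absolute log2 change of at least 0.5 left 1 gene in primary MycKO, 0 in MlxKO, 3 in DKO, 0 in DKO against MycKO and 1 in DKO against MlxKO, and in immortalized cells 1 in MlxKO and 1 in DKO. Without a filter on low values, 0 genes passed the primary interaction and 1 immortalized DKO against WT. With only the groups compared in the fit, immortalized DKO against WT called 1, DKO against MycKO 2 and DKO against MlxKO 6. DESeq2 called 1 in immortalized DKO against MycKO, with 4181 of all genes called. The share of all genes called is not given for the other alternatives counted here, except division by library totals. Without the libraries that stand apart, a choice made after seeing the data, immortalized DKO against MycKO called 1 and DKO against MlxKO 6. Leaving out each library in turn gave 0 to 1 genes in primary MlxKO, 1 to 2 in DKO against MycKO (2 without DKO library 14) and 0 to 1 in the primary interaction. In immortalized cells it gave 3 to 6 in MycKO (6 without WT library 3), 0 to 3 in DKO, 0 to 2 in DKO against MycKO (2 without WT library 4, 1 without MlxKO library 5) and 2 to 6 in DKO against MlxKO (6 without WT library 4). Division by library totals called 1 in immortalized MlxKO. The median of all genes was then 0.16 there against 0.007 in the main fit (69.9% of calls higher against 49%). It was -0.156 against -0.002 in immortalized DKO against MlxKO (29.2% against 54%). In primary DKO against MlxKO it was -0.121 against -0.018 (32.4% against 47.3%). The share higher was 31.4% against 48.3% in primary MycKO and 37.2% against 48.5% in primary DKO. The 10 genes all read 10.4 CPM or more in every library, far above the floor of 3 reads. Counting error still adds to their spread, most for Nqo1, whose mean was the lowest in each group. With 3 libraries in a group, precision was limited as well.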
